A study of Mus musculus with 6 samples.

Results

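Gene expression of early CRISPR activation cells was compared with that of control fibroblasts in 4 of the 6 mouse libraries of the study, 2 of each kind, over all genes that passed a filter on low counts (16688 of the 49315 genes in the deposited table). The members were chosen by their sample labels alone. All cells were wild type and came from the skin of the tail tip. The 2 fibroblast libraries carried control lentiviral vectors and were taken at day 0. The 2 early libraries carried CRISPR activation vectors of the SAM type and were taken at day 7, and they are also labelled as fibroblasts. Early 1 is described as early reprogrammed, whereas early 2 is described as partially reprogrammed. A further 2 libraries of colonies isolated at day 22 after the same kind of vectors, labelled as progenitors and called late here, entered the estimate of the spread and are given for orientation. The labels used here name neither strain, sex nor age of the animals, nor the genes that the guides target, nor whether cells were pooled. Vectors and days in culture differ together between the groups, so their shares in any difference cannot be told apart.

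CRISPR activation directs a Cas9 protein that no longer cuts DNA to a promoter, where recruited activators raise transcription of the gene in its own place in the genome. SAM, the synergistic activation mediator, adds further activators through binding sites built into the guide RNA. Skin fibroblasts are mesenchymal cells that make collagens and other matrix proteins and keep a Hox code of their position in the body. Cardiac progenitors are marked by transcription factors of the GATA, T-box, NK2 homeobox, HAND and LIM homeobox families, and differentiated heart muscle by sarcomere proteins.

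The 4 fibroblast and early libraries held between 20469433 and 37445443 counts, and 3 counts, taken as the floor of detection, corresponded to between 0.08825 and 0.142 CPM (the read count normalised to library size, after TMM scaling, which corrects for differences in RNA composition). Intervals and floors cover counting error only. Across genes, log2 CPM correlated at r = 0.9775 between the fibroblast libraries and at r = 0.9394 between the early libraries, and at 0.8204 to 0.8585 between a fibroblast and an early library (Pearson, 16688 genes, which are not independent replicates). Early 1 was slightly closer to late 1 (r = 0.9454) than to early 2, and late 2 stood apart from all others, at 0.8828 or less. In late 2, 10.27% of counts came from mitochondrial genes, against 1.485% to 2.156% elsewhere. More than 4-fold differences were counted in 450 genes between the fibroblast libraries and in 1316 between the early ones. Whether replicates are separate cultures or animals is not in the labels, so the tests cover only the spread between libraries, which may be technical. The early and late columns were recognised by their names, which are not exact sample titles; if that reading were wrong, early and late would change places.

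In the early libraries 116 genes rose (0.695% of those tested) and 139 fell (0.833%), at an adjusted p under 0.05 in edgeR's quasi-likelihood test. Among the genes that rose the median change was 4.36 on the log2 scale, with a range of 1.3 to 10.3, and among those that fell the median size was 5.09, with a range of 1.49 to 12.1. Of these, 113 of the 116 and 133 of the 139 coded for proteins. Both early libraries lay above both fibroblast libraries for 5386 genes (32.3%) and below them for 5744 (34.4%), so that most genes without overlap missed the adjusted threshold, while 4976 had an unadjusted p under 0.05. The counts given below for single groups of genes are to be read against these shares. With 1 fibroblast library left out the test called 0 genes, whichever of them was dropped (2675 genes without fibroblast 1 and 2272 without fibroblast 2 at an unadjusted p under 0.05). It called 6 without early 1, 546 without early 2, 661 without late 1 and 823 without late 2. The direction of all 255 was the same whichever library was dropped. They were called in these same libraries, with changes of at least 1.3 on the log2 scale, so this is no independent support. Of the 94 called genes that the naming rule selects, all lost the call without fibroblast 1 (adjusted p 0.164 to 0.278) and without fibroblast 2 (0.16 to 0.308), 92 without early 1 (0.0523 to 0.168) and 36 without early 2 (0.0526 to 0.108). DESeq2 called 4201 genes on the same counts.

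Among the called genes with a mean log2 CPM of at least 3, the largest rise was that of Podxl, a sialomucin of podocytes, mesothelium and vessel lining (ENSMUSG00000025608, chromosome 6, 31519488 to 31563981 in GRCm38). It was at 0.772 and 1.18 CPM in the fibroblast libraries and at 334 and 107 in the early ones, a log2 fold change of 7.81 ± 0.75 (SE, adjusted p = 0.0289). Ildr2, an immunoglobulin-like membrane protein, went from 1.24 and 1.15 to 187 and 166 CPM, 7.21 ± 0.31 (SE, adjusted p = 0.0139). Ptgis, the prostacyclin synthase, was at 3.42 and 3.74 CPM in fibroblasts and at 154 and 439 in early cells, 6.37 ± 0.77 (SE, adjusted p = 0.0408). Both early libraries thus stood far above both fibroblast libraries, by an amount that differed between the early libraries for Podxl and Ptgis and hardly for Ildr2. The serpin Serpinb6b, the chloride channel regulator Clca3a1, the hyaluronan-binding plasma protein Itih2, the Schlafen gene Slfn9, the kainate receptor subunit Grik5 and the endosomal protein Nsg1 are the other rises outside the groups below, with log2 fold changes between 4.42 (Nsg1) and 6.10 (Serpinb6b). Among the falls, Htr1b, a serotonin receptor, dropped from 253 and 309 to 1.78 and 1.18 CPM, -7.56 ± 0.61 (SE, adjusted p = 0.0221). Coch, a secreted protein best known from the inner ear, dropped from 255 and 385 to 2.76 and 2.13 CPM, -7.03 ± 0.68 (SE, adjusted p = 0.0289). These levels were close to each other within each group. Adam8, a membrane protease, fell from 82.7 and 87.4 to 2.81 and 1.7 CPM, and Arhgdib, a regulator of small GTPases that is abundant in blood cells, from 1174 and 505 to 20 and 37.1. Tmem47, Mfap3l, Galnt13, Arhgef28, Slc6a17, Srpx2, Pcolce2, Lipg, Ptprd, Radil and B3galnt1 are the other 11 falls outside the groups below, by 4.04 (B3galnt1) to 7.06 (Tmem47) on the log2 scale.

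**Figure D1:**
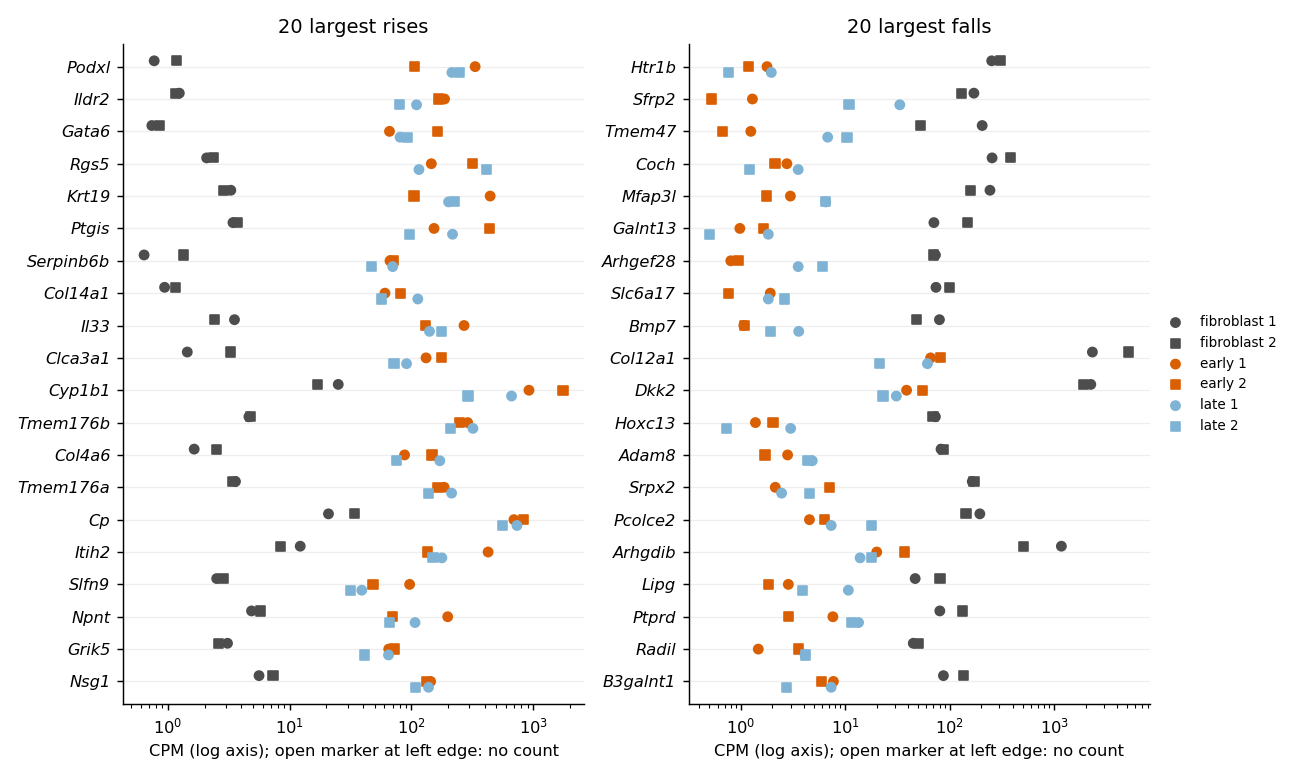
CPM (log axis) of the 20 largest rises (left) and 20 largest falls (right) among genes that passed the test with a mean log2 CPM of at least 3, with 1 point per library. Grey points are fibroblasts, orange early and blue late libraries, circles replicate 1 and squares replicate 2; no orange point lies within the range of the grey ones, and Podxl runs from 0.772 CPM in fibroblast 1 to 334 CPM in early 1.

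Promoters of 5 genes are shown because the RNA of each is described below together with a partner or group: a pair of detoxification enzymes that rose, a pair of mitosis genes, and a pair of neighbours that start from the same stretch of DNA. Each window runs from 250 bases before to 50 after the start of the transcript, 5′ to 3′ on the strand of the gene, from RefSeq on GRCm38.p6. Capitals mark GCGTG or its reverse complement CACGC, the core to which the aryl hydrocarbon receptor binds, in the first 2 windows, and CCAAT or its reverse complement ATTGG, the CCAAT box, in the next 2. In the last window capitals run from the start of Tmem176b, which is read from the opposite strand, to the start of Tmem176a.
Cyp1a1, chr9:57697363-57697662, + strand: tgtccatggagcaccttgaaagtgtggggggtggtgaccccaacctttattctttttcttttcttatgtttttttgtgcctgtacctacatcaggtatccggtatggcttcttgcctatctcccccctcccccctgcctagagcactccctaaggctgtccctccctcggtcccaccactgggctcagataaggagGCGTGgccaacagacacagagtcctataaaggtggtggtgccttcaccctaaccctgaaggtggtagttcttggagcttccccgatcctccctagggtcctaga
Cyp1b1, chr17:79715012-79715311, - strand: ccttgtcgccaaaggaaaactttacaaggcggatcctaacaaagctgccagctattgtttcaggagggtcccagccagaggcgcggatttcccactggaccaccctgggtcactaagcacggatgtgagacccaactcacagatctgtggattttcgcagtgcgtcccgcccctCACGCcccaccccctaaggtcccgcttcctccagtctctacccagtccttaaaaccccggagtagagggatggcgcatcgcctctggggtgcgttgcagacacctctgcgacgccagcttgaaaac
Top2a, chr11:99024140-99024439, - strand: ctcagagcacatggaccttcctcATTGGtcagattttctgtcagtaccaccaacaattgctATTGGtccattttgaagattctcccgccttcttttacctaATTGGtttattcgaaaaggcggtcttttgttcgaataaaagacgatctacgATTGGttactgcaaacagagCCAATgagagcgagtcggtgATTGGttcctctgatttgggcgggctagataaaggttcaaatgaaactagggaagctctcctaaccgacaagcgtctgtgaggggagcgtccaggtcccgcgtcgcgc
Plk1, chr7:122159185-122159484, + strand: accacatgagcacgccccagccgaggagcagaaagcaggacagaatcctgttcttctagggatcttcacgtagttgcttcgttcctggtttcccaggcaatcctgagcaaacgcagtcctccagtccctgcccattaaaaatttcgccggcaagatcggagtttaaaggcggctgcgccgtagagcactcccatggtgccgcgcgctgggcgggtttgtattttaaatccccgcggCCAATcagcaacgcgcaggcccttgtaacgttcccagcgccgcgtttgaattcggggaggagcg
Tmem176a, chr6:48841233-48841532, + strand: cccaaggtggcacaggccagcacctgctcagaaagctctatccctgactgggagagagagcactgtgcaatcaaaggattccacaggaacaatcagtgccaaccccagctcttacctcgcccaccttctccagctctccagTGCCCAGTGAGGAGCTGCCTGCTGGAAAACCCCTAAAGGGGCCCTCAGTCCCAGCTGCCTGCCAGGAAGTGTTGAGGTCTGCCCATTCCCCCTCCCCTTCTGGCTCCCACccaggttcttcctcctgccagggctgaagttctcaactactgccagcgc
At least 1 GCGTG or CACGC was present in 35.2% of the 27025 genes with a window and in 54.2% of the 11579 tested genes with one. The shares were 41.0% of the 83 genes that rose and have a window and 51.1% of the 92 that fell, both below that of the tested genes. The Cyp1a1 and Cyp1b1 windows held 1 match each. Matches on both strands were counted, and a match describes the letters only. A CCAAT box in either direction was present in 41.1% of all genes with a window, in 42.6% of the tested ones, in 25 of the 37 mitosis genes with a window (67.6%) and in 20 of the 34 DNA replication genes (58.8%). More than 1 CCAAT box was found in 13.3% of all genes, in 16.1% of the tested ones and in 17 of the mitosis genes (45.9%); the Top2a window held 6 and the Plk1 window 1.

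Of the heart transcription factors and cofactors, 29 of 30 listed genes were tested, 5 rose and none fell; all 5 are named here. Both early libraries were above both fibroblast libraries for 14 of the 29 and below them for 7. The median fitted log2 fold change of the list was 0.56, against 0.00 for all genes tested. It was 1.10 without fibroblast 1, 1.05 without fibroblast 2 and 0.98 without early 1, and between 0.52 and 1.29 over all settings. Gata4, a zinc finger factor needed for heart formation (ENSMUSG00000021944, chromosome 14, 63198922 to 63271692), rose from 0.168 and 0.324 to 19.8 and 17.8 CPM, 6.22 ± 0.66 (SE, adjusted p = 0.0339). Gata6 (ENSMUSG00000005836, chromosome 18, 11052064 to 11085635), its close relative, rose from 0.739 and 0.853 to 66.1 and 165 CPM, 7.17 ± 0.59 (SE, adjusted p = 0.0221). Early 2 had the higher Gata6 level, by 1.31 on the log2 scale, whereas the Gata4 levels of both early libraries nearly coincided. Gata5, the third GATA factor of the heart, had 0 counts in the fibroblast libraries and 43 in the early ones (1.38 and 0.568 CPM), at least 21-fold higher computed against 3 counts over the fibroblast group, and missed the threshold (adjusted p = 0.0642). Reads of Gata6 and of the partly overlapping transcript 1010001N08Rik, which also rose, cannot be told apart where they overlap, since the strand setting of the counting is not stated.

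Cofactors of GATA proteins and a T-box gene make up the other rises of this list. Zfpm2 (FOG2), a cofactor that binds GATA4 in the heart, rose from 10.3 and 10.1 to 45.2 and 47.1 CPM, 2.17 ± 0.21 (SE, adjusted p = 0.0282). Zfpm1 (FOG1), its relative of blood development, rose from 10.2 and 13.1 to 44.2 and 35.2 CPM, 1.77 ± 0.25 (SE, adjusted p = 0.0472). Tbx2, a T-box repressor of the chamber muscle program, rose from 0.537 and 0.588 to 6.9 and 8.52 CPM, 3.77 ± 0.41 (SE, adjusted p = 0.0351). All 3 were at similar levels in early 1 and early 2, and without late 1 in the fit Zfpm1 missed the threshold (adjusted p = 0.051).

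Further factors of the heart fields stood higher in both early libraries without passing the adjusted threshold. Tbx5, a T-box activator of the first heart field, had 3 counts in the fibroblast libraries and 343 in the early ones, a ratio of 167 (exact 95% interval 56.8 to 815, counting error only), at 11.9 and 3.55 CPM in early 1 and early 2 (adjusted p = 0.0712). Nkx2-5, a homeobox factor of heart muscle, stood at 0.0336 and 0.147 CPM in fibroblasts against 6.46 and 1.75 in early cells (adjusted p = 0.102). Hand2, a basic helix-loop-helix factor of the right ventricle, was at 1.38 and 1.41 against 17.9 and 128 CPM (adjusted p = 0.0603). Here early 1 and early 2 took opposite orders: Tbx5, Nkx2-5 and Tbx20 were higher in early 1, and Hand2 was higher in early 2. Isl1, a LIM homeobox factor of the second heart field, was at 0.101 and 0.0294 against 16.4 and 9.7 CPM (adjusted p = 0.064), and Tbx20 at 0.839 and 1.29 against 43.9 and 6.2 (adjusted p = 0.0728). Foxc1, a forkhead factor of mesoderm, was at 8.76 and 7.56 against 81.1 and 119 CPM (adjusted p = 0.0519). Mef2c did not move with them, at 14.3 and 22.7 CPM in fibroblasts and 8.11 and 23.3 in early cells, which overlap (log2 fold change -0.24 ± 0.78, adjusted p = 0.866). Its fitted direction turned without fibroblast 2 (0.13) or early 1 (0.34). Hand1 stayed near the floor, at 0.0891 and 0.142 CPM in early cells, and so did Myocd, the coactivator of smooth and heart muscle genes, at 0.0891 and 0.142.

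**Figure D2:**
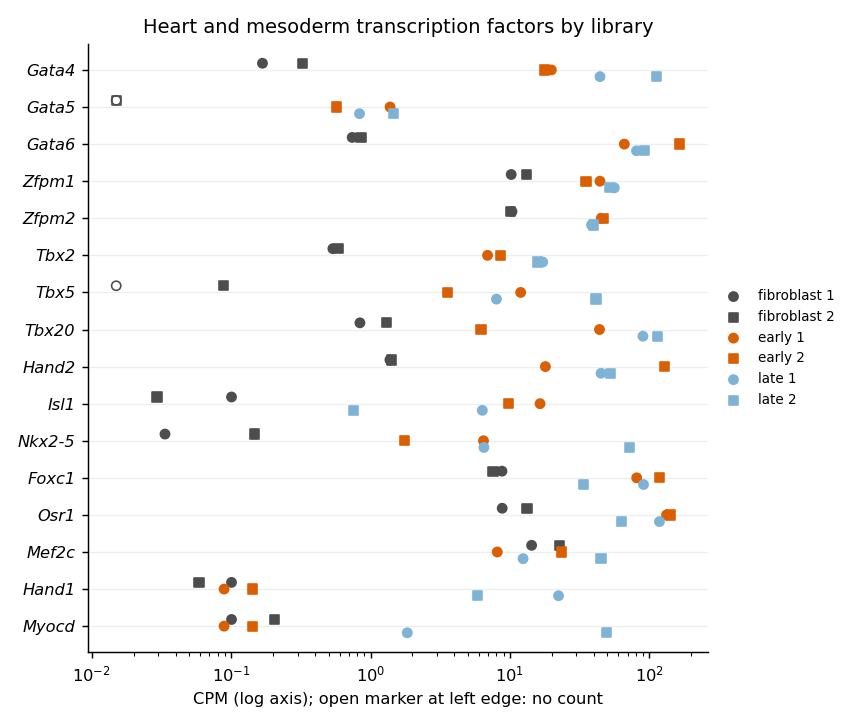
CPM (log axis) of 16 heart and mesoderm transcription factors, with 1 point per library, coloured grey for fibroblasts, orange for early and blue for late libraries, circles for replicate 1 and squares for replicate 2; open markers at the left edge had no count. Gata4, Gata6, Zfpm1, Zfpm2, Tbx2 and Osr1 passed the test between early and fibroblast libraries, while Mef2c, Hand1 and Myocd overlap.

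None of the 26 tested sarcomere genes passed, with 3 above and 10 below both fibroblast libraries and a median of -1.42. Without fibroblast 2 this median was -0.01, with 13 genes higher and 13 lower, and with the replicate block it was -0.80. Myh6, the alpha myosin heavy chain of heart muscle, was at 7.82 and 62.8 CPM in the fibroblast libraries and 5.83 and 5.92 in the early ones, and Actc1, cardiac alpha actin, at 2.18 and 17.6 against 2.27 and 1.89. The high value of each was that of fibroblast 2, and the other 3 fibroblast and early libraries were close together. In late 2, Myh6 was at 25360 CPM and Actc1 at 6843. Where the reads of these genes in fibroblast 2 came from was not tested, so they are not taken as expression by fibroblasts. Of the genes for calcium handling, channels and natriuretic peptides, 1 of 20 rose and none fell. Both early libraries were above both fibroblast libraries for 2 of the 20 and below them for 12, with a median of -1.87. The gene that rose was Gjc1, the gap junction protein connexin 45 of conducting tissue and early heart, from 11.9 and 11.7 to 38.4 and 32.8 CPM, 1.59 ± 0.22 (SE, adjusted p = 0.0456). Gja1, connexin 43, stood at 1395 and 1348 CPM in fibroblasts and at 77.2 and 124 in early cells (adjusted p = 0.0809). The 5 cardiomyocyte markers (Myh6, Tnnt2, Actc1, Tnni3, Ryr2) summed to 13.7 and 106 CPM in fibroblast 1 and 2 and to 12.7 and 48.4 in early 1 and 2, and to 66.5 and 41400 in late 1 and 2. Among the fibroblast and early libraries, Tnnt2, cardiac troponin T, was highest in early 2. It stood at 1.98 and 15.6 CPM in fibroblasts against 2.67 and 35.9 in early 1 and 2 (adjusted p = 0.7855). Myh6, Actc1, Tnni3 and Ryr2 were highest in fibroblast 2 among these libraries.

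Of 23 smooth muscle contractile genes tested, 20 had both early libraries below both fibroblast libraries and 1 above, with a median of -2.91 (-1.68 without fibroblast 2), and 1 fell by the test. That gene was Itga8, an integrin subunit of contractile mesenchyme, at 55.6 and 106 CPM in fibroblasts and 0.312 and 0.615 in early cells, -7.44 ± 0.66 (SE, adjusted p = 0.0241). Acta2, smooth muscle actin, stood at 589.8 and 2714 CPM against 110.2 and 150.0 in early cells (adjusted p = 0.0707), and Tagln at 129 and 353 against 14.0 and 6.62 (adjusted p = 0.0645). Fibroblast 2 exceeded fibroblast 1 in both of these genes, and both early libraries were below either.

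Among 20 early mesoderm and cardiovascular progenitor genes tested, 1 rose. Osr1, a zinc finger factor of intermediate and lateral mesoderm (ENSMUSG00000048387, chromosome 12, 9570116 to 9581500), went from 8.8 and 13.3 to 133 and 141 CPM, 3.63 ± 0.41 (SE, adjusted p = 0.0368). Foxf1, a lateral mesoderm forkhead factor, was at 3.86 and 4.94 against 26.3 and 14.0 CPM (adjusted p = 0.0733), and Bmp4 at 11.7 and 25.6 against 80.8 and 128 (adjusted p = 0.0692). Fgf10, a ligand of limb and second heart field, was at 292 and 283 against 5.52 and 12.3 (adjusted p = 0.0726). Mesp1, Mesp2 and Mixl1, which mark nascent mesoderm, had too few counts to be tested. Of 12 pluripotency factors tested none passed, and Pou5f1 had 0 counts in all 4 libraries, which allows up to 0.142 CPM in early 2.

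Hox genes are expressed in the order of their clusters from head to tail, and the last genes of each cluster mark tail and distal limb. The Hox genes that rose were anterior ones, and those that fell were posterior ones. Of the 20 tested genes of paralog groups up to the eighth, 3 rose and none fell, 16 had both early libraries above both fibroblast libraries and 4 below, with a median of 1.34. Hoxa2 rose from 0.403 and 0.382 to 11.7 and 28.5 CPM, 5.66 ± 0.82 (SE, adjusted p = 0.0499). Hoxa3 rose from 1.28 and 0.882 to 23.7 and 40.8, 4.90 ± 0.55 (SE, adjusted p = 0.0367), and its neighbour Hoxa4 from 0.436 and 0.471 to 16.4 and 9.98, 4.85 ± 0.54 (SE, adjusted p = 0.0357). Of the 15 tested genes from the ninth group on, 4 fell and none rose, 10 were below and 4 above, with a median of -2.27. Hoxb13, a marker of the tail end of the body axis (ENSMUSG00000049604, chromosome 11, 96194316 to 96197447), fell from 66.3 and 79.1 CPM to 3 counts over both early libraries, a ratio of 1060 (exact 95% interval 363 to 5150; adjusted p = 0.0198). Hoxc12 fell from 99.2 and 109 CPM to 3 counts as well, a ratio of 1510 (518 to 7340; adjusted p = 0.0332). These transcripts were at or near the floor in both early libraries. Hoxa13 fell from 31.2 and 30.9 to 0.49 and 0.331 CPM, -6.22 ± 0.78 (SE, adjusted p = 0.0412), and Hoxc13, which lies next to Hoxc12, from 73.0 and 69.3 to 1.38 and 2.04, -5.38 ± 0.77 (SE, adjusted p = 0.048). Hoxc9, Hoxd10, Hoxd11 and Hoxd13 were the posterior genes above both fibroblast libraries, with low levels throughout, as Hoxd10 at 1.38 and 0.0588 against 6.06 and 5.77 CPM (adjusted p = 0.258). Antisense transcripts run through the Hox clusters, and without a stated strand setting their reads cannot be separated from those of the genes.

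Other factors of position changed as well, 1 up and 5 down of 43 tested. Lhx6, a LIM homeobox factor of jaw mesenchyme and interneurons, rose from 0.235 and 0.206 to 13.9 and 13.9 CPM, 5.96 ± 0.43 (SE, adjusted p = 0.0204). Alx4, a homeobox factor of skin and craniofacial mesenchyme, fell from 79.9 and 58.6 to 0.312 and 0.0946 CPM, -8.37 ± 0.89 (SE, adjusted p = 0.0349). Irx1 fell from 64.4 and 88.3 to 0.0891 and 0.237 CPM, -8.85 ± 1.10 (SE, adjusted p = 0.0411), and Shox2 from 97.1 and 80.9 to 10.3 and 4.83, -3.55 ± 0.43 (SE, adjusted p = 0.0408). Both encode homeobox factors of limb and heart. Ebf1, a factor of mesenchyme and B cells, fell from 83.2 and 100 to 0.356 and 0.426, -7.86 ± 1.10 (SE, adjusted p = 0.0472). It missed the threshold when genes with low counts were kept in the test (adjusted p = 0.0641). Among mesenchymal and epithelial-mesenchymal transition factors, Sox9, the factor of cartilage and valve progenitors, rose from 15.1 and 8.41 to 98.3 and 116 CPM, 3.19 ± 0.43 (SE, adjusted p = 0.0456), and Mkx, a tendon homeobox factor, fell from 12.4 and 12.8 to 0.534 and 0.71, -4.33 ± 0.55 (SE, adjusted p = 0.0412). Twist2 and Snai2 were lower in both early libraries (adjusted p = 0.0602 and 0.0655), and Zeb1 and Runx2 overlapped.

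Among genes of mesothelium, epicardium and simple epithelia, 2 rises stood out by their level. Krt19, a keratin of mesothelium and simple epithelia, rose from 3.29 and 2.88 to 444 and 105 CPM, 6.47 ± 0.82 (SE, adjusted p = 0.0415), and with Podxl it made 2 rises among 23 tested epicardial and mesothelial genes, both higher in early 1. Cav1, the caveolin of mesothelium, endothelium and fibroblasts, fell from 829 and 835 to 239 and 179 CPM, -2.0 ± 0.25 (SE, adjusted p = 0.0412). Of the defining markers of mesothelium, Upk3b, Msln, Wt1 and Lrrn4 were not called: Wt1 was at 1.29 and 1.37 CPM in early cells against 0.201 and 0.147, Msln at 1.47 and 0.568 against 0.739 and 0.206, and Lrrn4 had no count in fibroblasts or early 1. Krt19 made up most of the 5-marker sum of 447 and 109 CPM in early 1 and 2, against 4.36 and 3.53 in fibroblasts. Of 26 tested genes of simple epithelia 1 rose, Krt19 again, and Cdh1, the epithelial cadherin, was at 0.49 and 0.189 CPM. Aldh1a2, the retinoic acid synthase of epicardium, was at 1.07 and 0.441 against 6.95 and 6.39 CPM (adjusted p = 0.0624).

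Rgs5, a regulator of G protein signals and the leading marker of pericytes (ENSMUSG00000026678, chromosome 1, 169655501 to 169695813), rose from 2.08 and 2.38 to 146 and 319 CPM, 6.70 ± 0.87 (SE, adjusted p = 0.0438). It missed the threshold when genes with low counts were kept in the test (adjusted p = 0.054). No other of the 12 tested pericyte genes passed. Of the 12, 4 had both early libraries above both fibroblast libraries and 2 had both below. Mcam, another pericyte marker, stood higher in early cells, at 2.1 and 1.3 against 7.5 and 6.1 CPM (adjusted p = 0.0542). Cspg4, which encodes the pericyte proteoglycan NG2, stood lower in early cells, at 42.5 and 55.5 against 6.68 and 4.12 CPM (adjusted p = 0.161), and Kcnj8 at 0.336 and 0.824 against 3.3 and 2.98 (adjusted p = 0.332), so that the pericyte markers took both directions. Of the 17 tested endothelial genes none passed, with 5 above and 4 below both fibroblast libraries. The 5 defining markers summed to 1.48 and 4.0 CPM in the fibroblast libraries and to 1.65 and 2.03 in the early ones. Among them Pecam1 stood higher in early cells, at 0.846 and 1.23 against 0.101 and 0.324 CPM (adjusted p = 0.486), and Cdh5 lower, at 0.0445 and 0.0473 against 0.504 and 1.0 (adjusted p = 0.244). All 25 listed genes together summed to 78.0 CPM in early 1 and 443 in early 2, against 139.8 and 125.

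Markers of macrophages were lower in the early libraries. Of 25 tested, none passed, but 23 had both early libraries below both fibroblast libraries, and the median was -7.37 (-6.86 with the 5 genes at 0 counts in early cells taken at their bound, and -4.40 over the 6 genes that pass a filter of 1 CPM in at least 4 libraries). The 5 defining markers (Ptprc, Cd68, Adgre1, Csf1r, Lyz2) summed to 233 and 1000 CPM in fibroblast 1 and 2 and to 4.23 and 10.7 in early 1 and 2. Adgre1 (F4/80) alone was at 15.8 and 73.8 against 0 and 0.0473 CPM. Fibroblast 2 thus had a several-fold higher sum than fibroblast 1, and both early libraries were far below either. In bulk RNA, fewer cells of a kind and less RNA per cell cannot be told apart. The part of macrophage RNA in the falls described here was not tested. Keratinocyte markers summed to between 3.74 and 6.32 CPM over the 4 libraries, with Krt1 at 0 counts in each and Krt14 at 0 in all but early 2. Schwann cell and melanocyte markers summed to at most 1.85 CPM, and Adipoq, the defining gene of fat cells, had no count in any of them. The 8 fibroblast markers summed to 11500 and 13300 CPM in fibroblast 1 and 2 and to 5690 and 14500 in early 1 and 2. None of them was called, and 2 had both early libraries below both fibroblast libraries. Vim stood at 7427 and 7060 CPM in fibroblasts against 2941 and 2391 in early cells, and Pdgfra at 514 and 329 against 38.2 and 530.1. Thy1 was at 362 and 217 against 12.4 and 178 CPM, and Col1a2 at 400 and 928 against 766 and 3258. These genes were thus detected in cells labelled as fibroblasts, while Lum was at 0 in early 1 and at 102 CPM in early 2.

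Of 36 tested collagen chains, 2 rose and 3 fell, and the sign of the median of the family depended on the setting. Col14a1, a fibril-associated collagen (ENSMUSG00000022371, chromosome 15, 55307750 to 55520803), rose from 0.94 and 1.15 to 60.7 and 81.8 CPM, 6.08 ± 0.48 (SE, adjusted p = 0.0221). Col4a6, a basement membrane chain, rose from 1.65 and 2.5 to 87.9 and 148, 5.82 ± 0.60 (SE, adjusted p = 0.0332). Col12a1, the fibril-associated relative of Col14a1 (ENSMUSG00000032332, chromosome 9, 79598991 to 79718831), fell from 2327 and 5191 to 65.7 and 81.9 CPM, -5.67 ± 0.77 (SE, adjusted p = 0.0457). Col24a1 fell from 50.2 and 23.6 CPM to 2 counts in the early libraries together, a ratio of 784 (exact 95% interval 217 to 6480; adjusted p = 0.0238). Col7a1, the anchoring fibril collagen of skin, fell from 62.0 and 37.5 to 6.41 and 9.18 CPM, -2.67 ± 0.38 (SE, adjusted p = 0.0472). In these 5 genes both early libraries lay on the same side of the fibroblasts and within 2-fold of each other. Among the other tested chains, Col4a1 and Col4a2 were lower in both early libraries (805 and 1040 against 249 and 215 CPM for Col4a1, adjusted p = 0.0751), as was Col11a1 (252 and 483 against 40.8 and 55.9, adjusted p = 0.0566). Col1a1, the main chain of skin collagen, overlapped between the groups, at 1471 and 3296 CPM in fibroblasts and 1910 and 3445 in early cells (log2 fold change 0.17 ± 0.50, adjusted p = 0.855).

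Matricellular, elastic fibre and other matrix proteins gave 1 rise and 2 falls among 44 tested genes. Npnt, nephronectin, a ligand of the integrin that contains Itga8, rose from 4.87 and 5.74 to 199 and 70.3 CPM, 4.66 ± 0.62 (SE, adjusted p = 0.0456), opposite to Itga8 itself. Hmcn1, hemicentin, fell from 51.2 and 67.9 to 0.445 and 0.615 CPM, -6.80 ± 0.75 (SE, adjusted p = 0.0357), and Egfl6, another ligand of that integrin, from 3.12 and 4.0 CPM to 0 counts, at least 52.2-fold lower (adjusted p = 0.0499). Thbs1 (thrombospondin 1), a matricellular regulator of TGF-beta and vessel growth, stood at 12190 and 18910 CPM in fibroblasts against 437 and 529.7 in early cells (adjusted p = 0.0645), so that its groups were far apart without a call. Of 40 proteases and inhibitors, Plau (urokinase) fell from 115 and 74.9 to 5.34 and 6.53 CPM, -4.0 ± 0.41 (SE, adjusted p = 0.0332), and Adamtsl1 from 88.3 and 56.8 to 0.534 and 0.568, -7.03 ± 0.52 (SE, adjusted p = 0.021). S100a4, a calcium-binding protein known as fibroblast-specific protein, was the 1 gene of 30 of the fibroblast identity list that passed, at 1452 and 939 CPM against 128 and 156, -3.07 ± 0.39 (SE, adjusted p = 0.0415). Among adhesion genes, Cdh13 (T-cadherin) fell from 362 and 328 to 76.8 and 83.2 CPM, -2.11 ± 0.24 (SE, adjusted p = 0.0357), and the giant cadherin Fat4 from 184 and 177 to 11.6 and 19.4, -3.54 ± 0.38 (SE, adjusted p = 0.0357).

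Early 1 and early 2 also differed from each other. Both are single libraries with different descriptions, so these differences carry no test. Of all genes tested, 853 were more than 4-fold higher in early 2 and 463 more than 4-fold higher in early 1. The 10 genes with the largest excess in each library, at a mean log2 CPM of at least 5, are named here with some of their relatives. Col3a1 was at 17.0 CPM in early 1 and 3888 in early 2, below and above the fibroblasts at 1077 and 1300. Dcn, the proteoglycan decorin, was at 3.21 and 679 against 176 and 139.5 CPM, and Lum, lumican, had 0 counts in early 1 and stood at 102 CPM in early 2, against 23.2 and 20. Among 12 tested small leucine-rich proteoglycans the median lay at -5.18 from the fibroblast mean in early 1 and at 0.40 in early 2 (log2 CPM). For the 36 collagens these values were -1.86 and 0.17, and for the 30 fibroblast identity genes -2.78 and 0.02. Itgbl1 was at 3.25 and 639 CPM in early 1 and early 2, against 681 and 877 in fibroblasts. The mesenchymal cadherin Cdh11 was at 4.59 and 726, against 523 and 661. Both were near fibroblast levels in early 2 and almost absent from early 1. In other genes early 2 lay well above the fibroblasts, as it did in Col3a1, Dcn and Lum. C3, the central complement component, was at 4034 CPM there against 62.7 in early 1 and 23.3 and 36.1 in fibroblasts. C4b was at 8.24 and 517 CPM in early 1 and early 2 against 1.18 and 1.26, and the acute-phase serpin Serpina3n at 17.1 and 2376 against 5.0 and 5.5. The matrix protein Tgfbi was at 5.08 and 689 against 9.57 and 29.6, Ccn3 at 9.62 and 678 against 87.6 and 52.6, and the Wnt antagonist Sfrp1 at 27.4 and 1644 against 64.6 and 577. Periostin (Postn), a matrix protein of activated fibroblasts and valves, was at 1.2 and 186 CPM against 0.638 and 1.68. Early 1 exceeded early 2 in the collagenase Mmp13 (245 and 11.2 CPM in early 1 and early 2, 109 and 344 in fibroblasts), the chemokine Ccl2 (515 and 53.7, against 188 and 254) and osteopontin (Spp1, 3312 and 425, against 1211 and 821). It also did so in the growth-related prolactin gene Prl2c2 (113 and 10.7, against 16.6 and 5.68) and the hypoxia-inducible oxygen sensor Egln3 (171 and 17.3, against 1.71 and 2.35). The remaining 5 of these 10, Mcm5, Pclaf, Cenpf, Arhgap11a and Mki67, belong to the cell cycle, with 2.81 (Mki67) to 2.90 (Mcm5) lower log2 CPM in early 2.

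**Figure D3:**
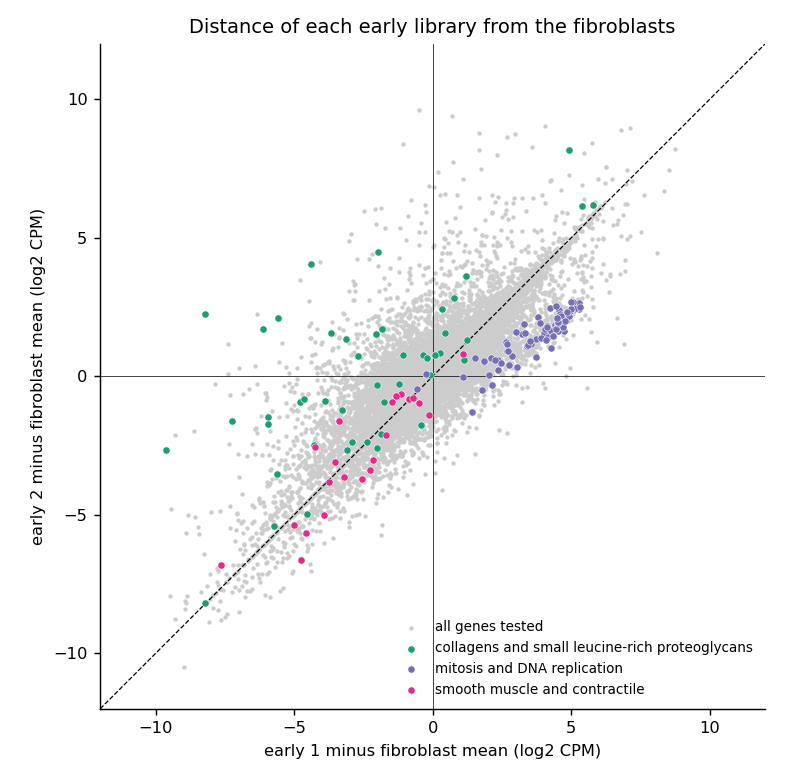
Difference from the mean log2 CPM of the fibroblast libraries in early 1 (horizontal axis) and early 2 (vertical axis) for 16688 genes, with the dashed line where both are equal. Collagens and small leucine-rich proteoglycans (green) scatter above the line, mitosis and DNA replication genes (purple) lie below it and right of 0, and smooth muscle genes (pink) follow the line below 0.

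**Figure D4:**
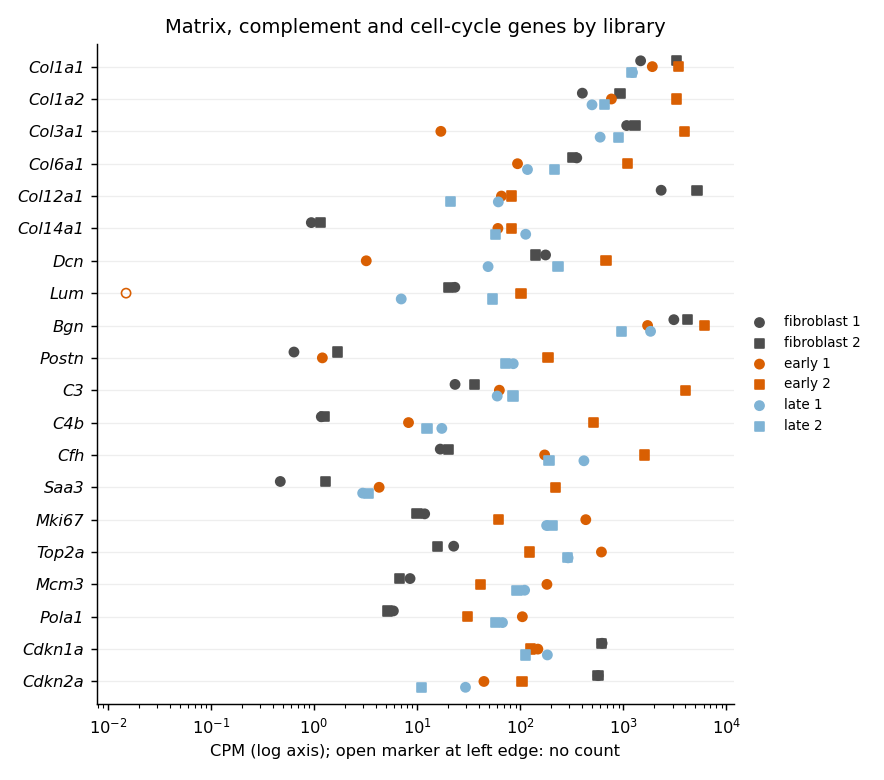
CPM (log axis) of 20 matrix, complement and cell-cycle genes, with 1 point per library, coloured grey for fibroblasts, orange for early and blue for late libraries, circles for replicate 1 and squares for replicate 2; the open marker had no count. Col3a1, Dcn, Lum and Postn stand far apart between early 1 and early 2, and Mki67 is at 432 CPM in early 1 and 61.6 in early 2.

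Seen from the fibroblasts, 4171 genes lay more than 4-fold away in at least 1 early library. Of these, 2174 did so in both in the same direction, 1281 in early 1 alone, 685 in early 2 alone and 31 in opposite directions. Early 1 was the more distant library for 9765 of 16688 genes (58.5%). The test favours genes whose early libraries are alike, and 93 of the 116 genes that rose and 126 of the 139 that fell were within 2-fold between early 1 and early 2.

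Cell-cycle genes stood above the fibroblasts in both early libraries, and higher in early 1 than in early 2. Of 45 mitosis genes, 43 had both early libraries above both fibroblast libraries and none below, with a median of 3.73 (1.83 without early 1), and none passed the adjusted threshold. Of 41 DNA replication genes 36 were above and 1 below, with a median of 2.67 (1.17 without early 1). Mki67, the antigen of cycling cells, stood at 11.8 and 9.97 CPM in fibroblasts against 432 and 61.6 in early 1 and early 2, a log2 fold change of 4.50 ± 0.96 (SE, adjusted p = 0.0712). Top2a, the mitotic topoisomerase, was at 22.6 and 15.9 against 613 and 124 CPM (adjusted p = 0.0642). The mitotic kinase Plk1 was at 5.07 and 3.18 against 136 and 26.2 (adjusted p = 0.0662), and the replicative helicase subunit Mcm3 at 8.53 and 6.77 against 181 and 40.8 (adjusted p = 0.0645). Early 2 lay between the fibroblast mean and early 1 for 43 of the 45 mitosis genes (95.6%) and 38 of the 41 replication genes (92.7%), against 47.6% of all genes. The median distance from the fibroblasts was 4.49 in early 1 and 1.85 in early 2 for mitosis, and 3.42 and 1.16 for replication. Replication-dependent histone transcripts, which lack a poly(A) tail in cycling cells and are poorly captured by poly(A) selection, stood lower, with 11 of 14 tested below both fibroblast libraries and no call.

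Inhibitors of cyclin-dependent kinases took both directions. Cdkn1a (p21), the p53 target that halts the cycle (ENSMUSG00000023067, chromosome 17, 29090976 to 29100727), fell from 622 and 609 to 148 and 126 CPM, -2.16 ± 0.31 (SE, adjusted p = 0.0484). Cdkn1b (p27), an inhibitor of resting cells, rose from 31.9 and 29.4 to 134 and 196, 2.43 ± 0.28 (SE, adjusted p = 0.0368). Scaling by total counts alone left Cdkn1a short of the threshold (adjusted p = 0.0632). Cdkn2a, the locus of p16 and p19, stood at 569 and 568 CPM in fibroblasts against 44.4 and 104 in early cells (adjusted p = 0.0724), and its neighbour Cdkn2b (p15) at 212 and 232 against 8.37 and 15.4 (adjusted p = 0.0526). Cdkn2c (p18) was higher, at 14.2 and 8.06 against 74.0 and 43.7 (adjusted p = 0.0566). The maternally expressed Cdkn1c (p57) was at 7.79 and 24.5 against 0.624 and 0.331 (adjusted p = 0.0556). Of 31 genes of the list 1 rose and 1 fell, with 6 above and 16 below both fibroblast libraries.

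Wnt ligands act through Frizzled receptors, R-spondins strengthen them, and secreted Dkk and Sfrp proteins restrain them. Among ligands and their agonists, Wnt5a, a noncanonical ligand, fell from 337 and 283 to 69.6 and 57.7 CPM, -2.29 ± 0.26 (SE, adjusted p = 0.0368). Rspo2, which enhances Wnt signals at the receptor, fell from 39.2 and 94.5 to 0.401 and 0.473, -7.24 ± 0.70 (SE, adjusted p = 0.0289). Lgr4, an R-spondin receptor, fell from 108 and 163 to 33.4 and 35.2 CPM, -1.99 ± 0.26 (SE, adjusted p = 0.0438). These are 3 falls and no rise among 39 tested genes. The secreted antagonists gave 2 falls among 16: Dkk2 (ENSMUSG00000028031, chromosome 3, 132085292 to 132180304), from 2246 and 1919 to 38.7 and 55.2 CPM, -5.47 ± 0.37 (SE, adjusted p = 0.0198), and Sfrp2, a Frizzled-related protein, from 171 and 129.6 to 1.29 and 0.521, -7.36 ± 0.84 (SE, adjusted p = 0.0368). Axin2, a target of canonical Wnt signals, was at 1.24 and 1.12 against 4.41 and 6.25 CPM (adjusted p = 0.0746), and Lef1 at 3.76 and 10.5 against 0.579 and 0.899 (adjusted p = 0.118).

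Of 48 TGF-beta and BMP genes, Tgfbr1, the type I receptor of TGF-beta, rose from 44.8 and 48.1 to 123 and 116 CPM, 1.36 ± 0.19 (SE, adjusted p = 0.0461), and Bmp7, a ligand, fell from 79.8 and 48.2 to 1.07 and 1.09, -5.88 ± 0.51 (SE, adjusted p = 0.0235). Both early libraries nearly coincided in each gene. Scaling by total counts alone left Tgfbr1 and, among the genes above, Cav1 short of the threshold (adjusted p = 0.055 and 0.0501). Egfr, the receptor of epidermal growth factor, rose from 13.8 and 12.1 to 80.9 and 97.3 CPM, 2.78 ± 0.34 (SE, adjusted p = 0.0408). Gdnf, a neurotrophic ligand, fell from 16.4 and 18.2 to 0.891 and 0.899, -4.27 ± 0.53 (SE, adjusted p = 0.0408), and Angptl2, an angiopoietin-like ligand, from 939 and 659 to 186 and 171, -2.16 ± 0.28 (SE, adjusted p = 0.0426). Igfbp5, which binds insulin-like growth factors in the matrix, fell from 27.4 and 84.9 to 0.223 and 0.237, -7.91 ± 0.88 (SE, adjusted p = 0.0357), and was the 1 call among 19 genes of that family. Robo2, a receptor of axon guidance, fell from 35.9 and 127 to 0.134 and 0.237 CPM, -8.75 ± 1.17 (SE, adjusted p = 0.0456), the 1 call among 32 guidance genes, of which 19 were below both fibroblast libraries. No gene of the FGF list (25 tested) or the Notch list (20 tested) passed, with 12 and 4 genes below and 5 and 7 above.

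Of 18 retinoid genes 1 rose and 1 fell. Crabp2, a binding protein of retinoic acid, fell from 36.8 and 40.5 to 0.49 and 0.757 CPM, -5.95 ± 0.75 (SE, adjusted p = 0.0412). Its relative Crabp1 was at 3015 and 328 CPM in the fibroblast libraries, which differed widely, and at 1.96 and 3.5 in the early ones (adjusted p = 0.0631).

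Of 27 acute-phase and complement genes tested, 4 rose and 1 fell. Cp, ceruloplasmin, a copper-binding ferroxidase of plasma, rose from 20.9 and 34.0 to 696 and 839 CPM, 4.80 ± 0.39 (SE, adjusted p = 0.0221). Lcn2, lipocalin 2, which binds bacterial iron carriers, rose from 0.94 and 0.471 to 55.5 and 94.3, 6.73 ± 0.54 (SE, adjusted p = 0.0221). Hp, haptoglobin, which binds free haemoglobin, rose from 0.302 and 0.735 to 42.4 and 104, 7.11 ± 0.72 (SE, adjusted p = 0.0329), and Mt2, a metallothionein, from 27.5 and 16.9 to 157 and 115, 2.62 ± 0.33 (SE, adjusted p = 0.0412). Masp1, a protease of the lectin pathway of complement, fell from 465 and 209.7 to 17.9 and 26.1 CPM, -3.94 ± 0.49 (SE, adjusted p = 0.0411). The median distance of this list from the fibroblast mean was 0.12 in early 1 and 2.41 in early 2.

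Regulators of NF-kB and cytokine signals gave 3 rises and no fall among 26. Nfkbiz, a nuclear cofactor of NF-kB, rose from 10.5 and 9.53 to 97.1 and 121 CPM, 3.45 ± 0.23 (SE, adjusted p = 0.0198). Socs3, a feedback inhibitor of JAK-STAT signals, rose from 29.9 and 24.6 to 139.5 and 149, 2.40 ± 0.20 (SE, adjusted p = 0.0224), and Bcl3, an atypical inhibitor of NF-kB, from 3.16 and 4.91 to 73.1 and 40.5, 3.81 ± 0.43 (SE, adjusted p = 0.0368). Il33, an alarmin cytokine held in the nucleus, rose from 3.52 and 2.41 to 271 and 131 CPM, 6.08 ± 0.51 (SE, adjusted p = 0.0224), the 1 call among 29 chemokines and cytokines. Its receptor Il1rl1 (ST2) was at 1218 and 510.2 against 126 and 52.0 CPM (adjusted p = 0.0642).

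Of 36 interferon-stimulated genes tested none passed, 23 were above both fibroblast libraries and 3 below, and the median was 1.5. The antiviral synthetase Oas1a was at 0.336 and 1.12 against 11.5 and 8.61 CPM (adjusted p = 0.0791), Mx2 at 0.436 and 0.265 against 3.88 and 3.12 (adjusted p = 0.0595) and the regulator Irf7 at 5.14 and 5.53 against 19 and 14.9 (adjusted p = 0.0708). Ifit2 ran the other way, at 169 and 96.6 against 42.5 and 51.5 (adjusted p = 0.077). Early 1 and early 2 were alike here, with list medians of 1.35 and 1.55 from the fibroblasts.

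Both cytochrome P450 genes whose promoters are printed above rose. Cyp1b1, which hydroxylates steroids and aromatic compounds, went from 25.1 and 17.0 to 924 and 1760 CPM, 6.0 ± 0.66 (SE, adjusted p = 0.0357), and Cyp1a1, the classical target of the aryl hydrocarbon receptor, from 1.31 and 0.618 to 60.9 and 30.5, 5.57 ± 0.76 (SE, adjusted p = 0.0459). Early 1 had the higher Cyp1a1 level and early 2 the higher Cyp1b1 level. Gsta4, a glutathione transferase, fell from 56.4 and 47.5 to 9.13 and 6.39 CPM, -2.74 ± 0.33 (SE, adjusted p = 0.0402). Aldh3a1, an aldehyde dehydrogenase, was at 4.03 and 3.27 against 458 and 67.4 (adjusted p = 0.0561). The neighbours Tmem176a (ENSMUSG00000023367, chromosome 6, 48840919 to 48847071) and Tmem176b (ENSMUSG00000029810, chromosome 6, 48833818 to 48841496), membrane proteins of uncertain function, both rose. Tmem176a went from 3.59 and 3.41 to 186 and 165 CPM, 5.64 ± 0.33 (SE, adjusted p = 0.0198), and Tmem176b from 4.63 and 4.79 to 290.1 and 247, 5.83 ± 0.34 (SE, adjusted p = 0.0198). The RefSeq starts used for the promoter window lie 109 bases apart on opposite strands. By the GENCODE positions given here the genes overlap, so reads in the overlap cannot be assigned without strand.

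Of 22 sterol synthesis genes 16 were above both fibroblast libraries and 1 below, with a median of 0.69 and no call; Sqle, the squalene epoxidase, was at 76.2 and 89.4 against 169 and 206 CPM (adjusted p = 0.0642). Plin2, which coats lipid droplets, fell from 314 and 294 to 84.4 and 98.8 CPM, -1.73 ± 0.21 (SE, adjusted p = 0.0408). No gene passed among 28 of glycolysis, 28 of fatty acid use, 34 nuclear-encoded subunits of the respiratory chain or 13 mitochondrial transcripts. Among 29 imprinted genes none passed, and Igf2 was at 19.2 and 8.03 against 3.52 and 3.22 CPM, Peg10 at 14.9 and 21.7 against 6.15 and 3.6, and Grb10 at 184 and 424 against 1.02 and 9.28 (adjusted p = 0.095, 0.134 and 0.0712). The satellite cell factor Pax7 had 0 counts in fibroblasts and stood at 14.3 and 6.67 CPM in early cells, at least 225-fold higher (adjusted p = 0.0642), while Myod1 and Myog had no count in the 4 libraries.

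**Figure D5:**
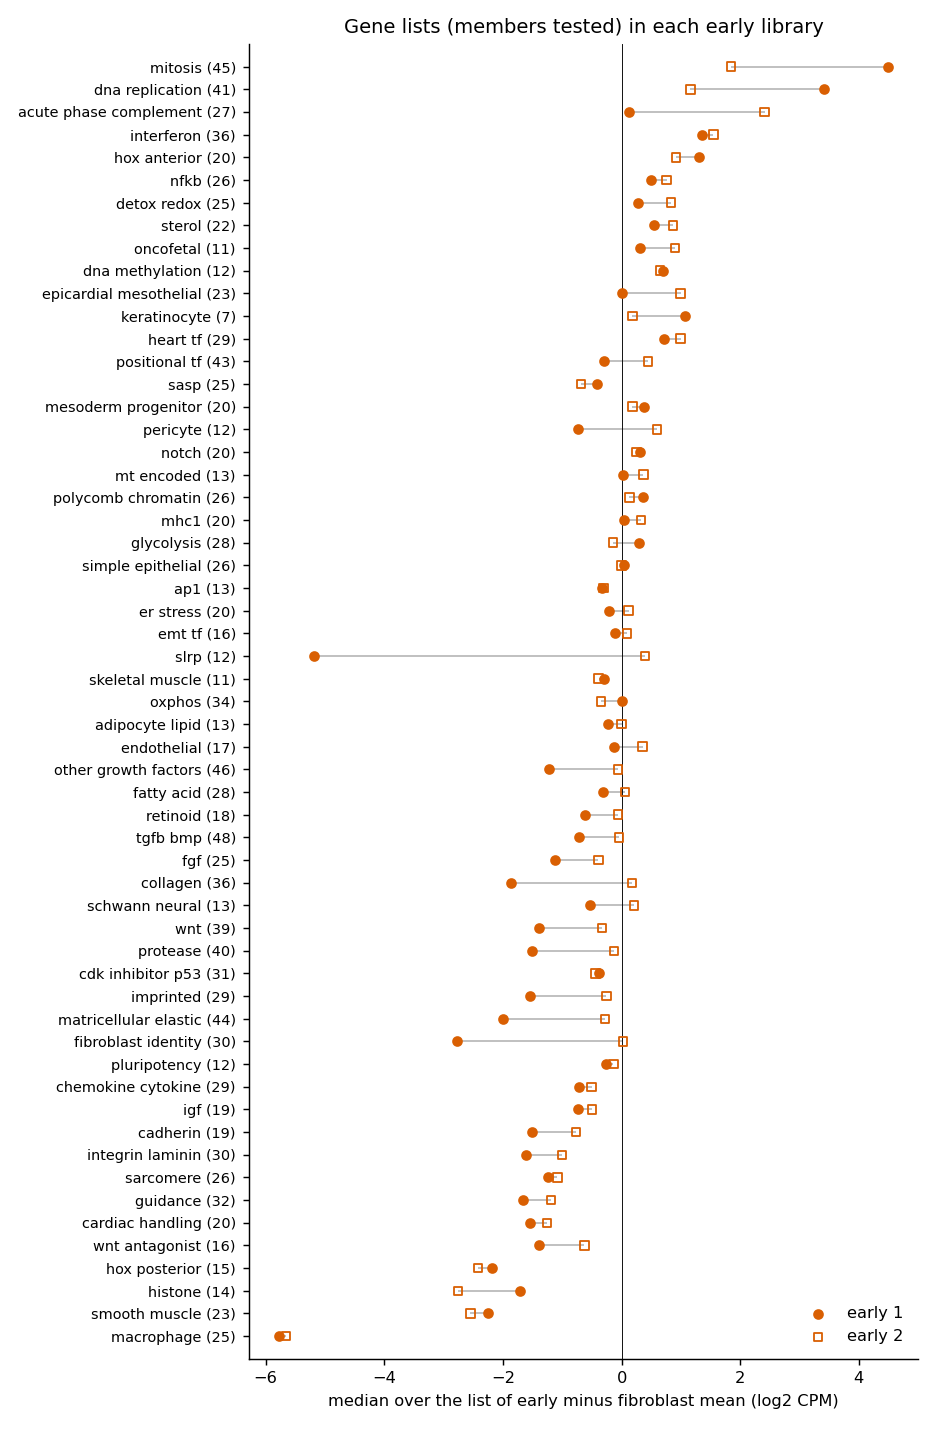
Median over each gene list of the difference from the fibroblast mean (log2 CPM) in early 1 (filled circles) and early 2 (open squares), with the number of members tested in parentheses and lists ordered by their fitted median. The small leucine-rich proteoglycans (slrp, -5.18 in early 1 and 0.40 in early 2), the fibroblast identity genes and the mitosis genes hold the 3 widest gaps between the early libraries, while smooth muscle, posterior Hox and macrophage genes lie below 0 in both.

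In the direct comparison of late with early libraries 0 of 16688 genes passed (0.0%) in edgeR, with 1709 at an unadjusted p under 0.05 and 936 called by DESeq2. Gata4 was at 44.2 and 113 CPM in late 1 and late 2 against 19.8 and 17.8 in early 1 and early 2, a log2 difference of 2.06 ± 0.52 (SE, adjusted p = 0.377). Igfbp5, which was near the floor in early cells, was at 88.1 and 183 CPM in late cells, 9.18 ± 0.91 (SE, adjusted p = 0.254), and Cyp1a1, high in early cells, was at 0.334 and 0.871, -6.21 ± 0.79 (SE, adjusted p = 0.254). Hmcn1 and Itga8 also stood higher in late cells, at 11.4 and 36.2 CPM for Hmcn1 and 10.7 and 18.8 for Itga8, while Hoxb13 and Col24a1 were still low, at 0.459 and 0.197 for Hoxb13 and 0.792 and 0.365 for Col24a1.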

How the data were processed

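RNA was extracted with a PureLink kit and made into poly(A) cDNA, per the labels' protocols. The authors deposited raw read counts per Ensembl gene, 1 column per library. The submitters' processing notes name Trimmomatic 0.36, STAR 2.5.2b, featureCounts with Subread 1.5.2 and the build GRCm38, without roles; strand, annotation and treatment of multimapping reads are not stated, so that values of overlapping or near-identical genes are uncertain. Symbols and positions were taken from GENCODE M21 for 49056 IDs, and 259 had none.

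Of 49315 genes, 31952 had a count and 16688 passed edgeR's expression filter by group. edgeR 4.0.16 (R 4.3.3, limma 3.58.1) fitted a robust quasi-likelihood model with TMM scaling and 3 group means over all 6 libraries, which share 1 estimate of the spread with 3 residual degrees of freedom and a biological coefficient of variation of 48.6%. P-values were adjusted over all genes tested by the Benjamini-Hochberg method, with a threshold of 0.05. The SE of a log2 fold change was derived from its F statistic. Log2 CPM used a prior count of 2. A fold against a group with no count was computed against 3 counts over the group, and one against 1 to 3 counts as a ratio of counts with its exact 95% interval. The procedure was also run on simulated counts that gave all genes the same coefficient of variation, which does not show how it performs on these libraries.

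Genes were named by rule: the 20 largest rises and falls among called genes with a mean log2 CPM of at least 3, every called member of 57 gene lists, for each list the 4 members with the smallest p, 8 heart factors, the 10 genes farthest apart in each direction between the early libraries, and members that define a role. A few genes that the rule selects are not reported here. The comparison, the members and the lists were chosen with earlier results of these data known, so no count over a list is independent support. Alternatives were another scaling, other filters, 4 libraries only, the replicate number as a block, DESeq2 1.42.0 and leaving out each library. A check of whether replicate numbers pair the libraries is given with the alternatives.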

Additional observations from a re-analysis of the deposited data

How the results depend on the processing

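The count of called genes depended on the setting. All 255 genes kept their direction under every alternative in which they were tested (216 of them with a filter of 1 CPM in at least 4 libraries). They were called in these same libraries with large changes, so a turn in direction was unlikely from the start. Against 255 genes (116 higher, 139 lower), RLE size factors gave 277, total counts alone 514 (263 higher, 251 lower), no expression filter 2337 (1118 and 1219), the filter of 1 CPM 415 (227 and 188), the 4 early and fibroblast libraries alone 1469 (712 and 757) and DESeq2 4201 (2105 and 2096). With total counts alone the median of all genes moved to 0.17 from 0.00 on the log2 scale. Leaving out 1 library at a time gave 0 to 823 genes in all, 0 to 411 higher and 0 to 446 lower; an arm left with 1 library was assumed to vary like the others. The cause of these shifts was not tested. Of the 94 called genes that the naming rule selects, 3 lost the call under total counts (adjusted p 0.0501 to 0.0632), 3 without the filter (0.0537 to 0.0641) and 75 with the replicate block (0.0505 to 0.0799). Mef2c, at -0.24, was at 0.13 without fibroblast 2 and at 0.34 without early 1, within a leave-one-out range of -1.15 to 0.34. Deviations of same-numbered libraries from their group means correlated at r = 0.121 between fibroblast and early, 0.238 between fibroblast and late and 0.0859 between early and late libraries. With 2 libraries per group these values do not settle whether the libraries are paired. The numbers were not taken as pairs in the main fit because the labels do not say that they pair libraries. With the replicate block 26 genes were called (11 higher, 15 lower), 24 of them among the 255. Genes under the floor of 3 counts (0.08825 to 0.142 CPM) are not measured at this depth.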

Other observations

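Further genes that passed the test lie outside the lists and were chosen for mention after their values were seen. Several transcription factors rose. Foxa2, a forkhead factor of endoderm and floor plate, rose from 0.302 and 0.176 to 56.0 and 11.3 CPM, 7.12 ± 1.02 (SE, adjusted p = 0.0484), and Gata2, a GATA factor of blood and endothelium, from 3.29 and 1.65 to 26.9 and 30.8, 3.55 ± 0.41 (SE, adjusted p = 0.0371). Isl2, the relative of Isl1 known from motor neurons, rose from 0.0672 and 0.0882 to 3.65 and 3.64 CPM, 5.47 ± 0.79 (SE, adjusted p = 0.0484), and Prdm6, a regulator of smooth muscle, from 0.302 and 0.294 to 47.5 and 64.6, 7.53 ± 0.48 (SE, adjusted p = 0.0198). The fibroblast values of Isl2 were at or under the floor of detection, so the size of its rise is uncertain. Sp5, a target of Wnt signals, had no count in either fibroblast library and stood at 6.33 and 4.78 CPM in early cells, at least 119-fold higher (adjusted p = 0.0456). Dach1, a corepressor of limb and eye, fell from 79.2 and 57.8 to 6.95 and 5.92 CPM, -3.41 ± 0.28 (SE, adjusted p = 0.0221). Bcl11b, a zinc finger factor of T cells and skin, fell from 2.05 and 2.5 CPM to 2 counts over both early libraries. This was a ratio of 49.9 (exact 95% interval 13.6 to 416, counting error only, adjusted p = 0.0466).

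Nutrient transporters were among the rises. Slc1a5, a glutamine carrier, went from 21.7 and 15.2 to 71.4 and 101 CPM, 2.23 ± 0.29 (SE, adjusted p = 0.0447), and Slc38a1, another one, from 24 and 26.5 to 191 and 100.4, 2.53 ± 0.36 (SE, adjusted p = 0.0477). Slc7a2, a carrier of cationic amino acids, rose from 6.58 and 13.3 to 161 and 129.5 CPM, 3.86 ± 0.44 (SE, adjusted p = 0.0368), and the nucleoside carrier Slc29a1 from 56.9 and 35.5 to 278 and 203, 2.38 ± 0.34 (SE, adjusted p = 0.0472). Receptor chains of interleukins 4 and 13 rose as well, Il4ra from 160.1 and 155 to 497 and 653 CPM, 1.87 ± 0.24 (SE, adjusted p = 0.0415), and Il13ra1 from 15.1 and 9.03 to 171 and 168, 3.81 ± 0.33 (SE, adjusted p = 0.0237). Tmem173, the DNA-sensing adaptor STING, rose from 19.4 and 17.1 to 53.9 and 78.2 CPM, 1.85 ± 0.27 (SE, adjusted p = 0.0472), and Apobec3, an antiviral cytidine deaminase, from 1.41 and 2.0 to 28.4 and 42.5, 4.37 ± 0.38 (SE, adjusted p = 0.0227).

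Adhesion and channel genes known from neurons were among the falls. L1cam, a neural adhesion molecule, fell from 18.0 and 43.2 to 0.178 and 0.0946 CPM, -7.76 ± 0.88 (SE, adjusted p = 0.0368), and Cadm2, a synaptic one, from 20.4 and 26.7 to 0.223 and 0.331, -6.39 ± 0.53 (SE, adjusted p = 0.0221). Negr1, a membrane-anchored adhesion protein, fell from 23.1 and 14.9 CPM to 0 counts, at least 272-fold lower (adjusted p = 0.0332), and was at 5.0 and 3.09 CPM in the late libraries. Trpv2, a cation channel, fell from 9.47 and 18.5 to 0.312 and 0.568 CPM, -4.98 ± 0.69 (SE, adjusted p = 0.0467), and Prnp, the prion protein gene, from 1114 and 1403 to 99.5 and 162, -3.27 ± 0.36 (SE, adjusted p = 0.0357). The called protocadherins Pcdhga2, Pcdhgb2 and Pcdhga11 share exons of 1 cluster, so the counting may have split or merged their reads.

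Pairs of neighbouring genes that passed and moved in the same direction, besides those described above, were Isyna1 with Ssbp4 on chromosome 8, 200 bases apart, both higher, and Gm2115 with Fah on chromosome 7, 1628 bases apart, both lower. Tacc1 rose while its neighbour 5430421F17Rik fell.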
